A study of Mus musculus with 21 samples.

Results

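The genes described here are 10 regulators of G-protein signalling (RGS): Rgs2, Rgs4, Rgs7, Rgs8, Rgs10, Rgs12, Rgs14, Rgs16, Rgs17 and Rgs20. They were chosen by name, with earlier results of these data known, and all 10 were found among the 24984 genes of the deposited count table. The assay was BrU-seq: cells incorporate bromouridine, and only the newly made RNA that carries it is captured for sequencing. The samples were cortical cultures from CD1 mice at day 17 in vitro, with 3 biological replicates of mixed sex per group.

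All groups shared a 30 min preincubation, with either 25 µM MM401 or its solvent DMSO, and 2 mM bromouridine over the final 30 min. MM401 prevents WDR5 from binding MLL1, the product of Kmt2a, which methylates lysine 4 of histone H3. Bicuculline, at 40 µM, blocks GABA-A receptors and so raises network activity, and water was its control. The 7 groups were DMSO with water for 4 h, DMSO with bicuculline for 1 h or 4 h, MM401 with water for 1 h or 4 h, and MM401 with bicuculline for 1 h or 4 h. DMSO with water for 1 h was not analysed here, so both DMSO responses were taken against the same water libraries at 4 h. The cultures hold several cell types.

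When a receptor activates a heterotrimeric G protein, its alpha subunit binds GTP and separates from the beta and gamma subunits, and both parts act on effectors such as adenylyl cyclases, phospholipase C beta and potassium channels. RGS proteins speed up GTP hydrolysis by the alpha subunit and so shorten the signal. In neurons they set the duration of signalling through, among others, metabotropic glutamate, muscarinic, opioid and dopamine receptors. Rgs2, Rgs4, Rgs8 and Rgs16 are small proteins made of little more than the RGS domain. Rgs7 works in a stable complex with the beta subunit Gnb5. Rgs12 and Rgs14 are large proteins with further domains, among them a GoLoco motif that binds inactive alpha subunits. Rgs10 is a short relative of that pair, and Rgs17 and Rgs20 form a group known for acting on Gz.

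Library depth in genes ran from 49886348 to 87939384 counts over the 20 libraries used. Replicate 3 of MM401 with water at 4 h held 316741 counts, which is 0.503% of the median of the others, and was left out, so that group has 2 libraries. Rgs14 had 36 to 152 reads per library and every other member at least 159, up to 112522 for Rgs7. Values below are CPM (read counts divided by the library size that TMM scaling gave), and levels are compared between genes only per kb of gene length. A gene was called where its Benjamini-Hochberg adjusted p from edgeR's quasi-likelihood test, over the 16959 genes tested, was under 0.05. All 10 members passed the filter on low counts and were tested. The activity-induced transcription factor genes Fos and Npas4 rose under bicuculline in all 4 comparisons with water, by 1.18 to 3.04 and by 3.36 to 4.43 on the log2 scale. Neuronal markers summed to 4523 to 5673 CPM per library in water, 5350 to 6380 CPM at 1 h of bicuculline and 6045 to 7194 CPM at 4 h, and microglial markers to 25.1 to 41.9 CPM over all groups. Of the markers, Dlx1 was listed at 0 in every library, and Tmem119 was near 0 (0.014 to 0.18 CPM). Excitatory markers summed to 479.5 to 612 CPM in water and 649 to 1001 CPM in bicuculline, and GABAergic markers to 326 to 384 CPM and 494 to 688 CPM. Both sums were higher at 4 h than at 1 h of bicuculline under DMSO. Astrocyte markers summed to 414 to 696 CPM in water, 717 to 846 CPM at 1 h of bicuculline and 569 to 656 CPM at 4 h, so that they stood highest at 1 h. The part of these markers in the results below was not tested.

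On mm10, 6 of the 10 members lie on chromosome 1, which holds 11 of the Rgs genes in the table. Rgs2 spans chr1:143999337-144004149 on the minus strand, and Rgs13 and Rgs1 are the next Rgs genes, 134.5 kb and a further 67.3 kb on. Rgs8 (chr1:153653036-153697667) and Rgs16 (chr1:153740352-153745468) follow each other on the plus strand with 42.7 kb between them. Rgs4 (chr1:169741476-169747642, minus strand) faces Rgs5 across 45.7 kb. Rgs7 (chr1:175059075-175492545) and Rgs20 (chr1:4909575-5070285) are on the minus strand, as are Rgs10 (chr7:128373624-128418172) and Rgs17 (chr10:5825663-5922400). Rgs12 (chr5:34949447-35033593) and Rgs14 (chr13:55369731-55384687) are on the plus strand. Spans ran from 4.81 kb for Rgs2 to 433 kb for Rgs7, and reads were counted over whole genes, introns included. Rgs12 was the only member to overlap another gene of the table, the microRNA gene Mir3097.

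The 250 bases before the annotated start are printed for Rgs2, Rgs4, Rgs8 and Rgs16, the members whose nascent RNA peaked at 1 h of bicuculline (RefSeq, build GRCm38.p6). Both strands were searched for the cAMP response element TGACGTCA, its core TGACG, the AP-1 site TGANTCA, the EGR site GCGNGGGCG and the CArG box of serum response factor. Capitals mark the matches.
Rgs2 (chr1:144004150-144004399, minus strand): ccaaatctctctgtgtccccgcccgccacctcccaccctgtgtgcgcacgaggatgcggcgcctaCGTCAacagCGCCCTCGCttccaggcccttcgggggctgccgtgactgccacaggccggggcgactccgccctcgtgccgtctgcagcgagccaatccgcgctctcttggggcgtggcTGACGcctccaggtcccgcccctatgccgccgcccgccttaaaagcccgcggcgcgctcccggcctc
Rgs4 (chr1:169747643-169747892, minus strand): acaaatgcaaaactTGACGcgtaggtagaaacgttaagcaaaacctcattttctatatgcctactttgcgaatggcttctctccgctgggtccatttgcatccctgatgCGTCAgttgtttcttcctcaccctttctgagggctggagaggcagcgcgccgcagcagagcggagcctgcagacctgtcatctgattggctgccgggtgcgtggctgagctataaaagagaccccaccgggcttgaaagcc
Rgs8 (chr1:153652787-153653036, plus strand): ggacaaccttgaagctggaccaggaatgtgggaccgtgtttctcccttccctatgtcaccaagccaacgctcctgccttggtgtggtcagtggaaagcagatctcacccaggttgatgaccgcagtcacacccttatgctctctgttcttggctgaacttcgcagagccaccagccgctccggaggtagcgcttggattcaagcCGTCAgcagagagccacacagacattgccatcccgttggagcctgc
Rgs16 (chr1:153740103-153740352, plus strand): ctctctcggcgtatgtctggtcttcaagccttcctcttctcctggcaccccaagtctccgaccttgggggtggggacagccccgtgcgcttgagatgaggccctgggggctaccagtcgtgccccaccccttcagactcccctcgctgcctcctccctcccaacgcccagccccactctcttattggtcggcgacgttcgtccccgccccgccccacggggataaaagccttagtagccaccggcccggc
Counted from the start site to the first base of the match, Rgs2 held the core at -185 and -67 and an EGR site at -176. Rgs4 held the core at -236 and -141, and Rgs8, which has 3 annotated windows, held it at -46 of the window shown. Rgs16 held no match to these letters in its window. Among 32851 windows of this length, the core was in 17.8%, the EGR site in 4.70%, the AP-1 site in 6.75%, the full element, which contains the core, in 1.55% and the CArG box in 1.47%. Of the other members with a window, Rgs12 had a core at -82 and an AP-1 site at -22 of its second window, Rgs17 had an AP-1 site at -122, and Rgs7 and Rgs10 had no match. A match describes the letters and says nothing of occupancy.

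Per kb, the members stood at very different levels. In DMSO with water, Rgs2 and Rgs4 stood at 14.8 ± 1.6 and 14.5 ± 3.8 CPM per kb (SD, n = 3) and could not be ordered. Rgs7 followed with 2.20 ± 0.55, Rgs20 with 1.47 ± 0.07 and Rgs17 with 1.04 ± 0.08 CPM per kb. Lower still were Rgs8 (0.72 ± 0.02), Rgs16 (0.61 ± 0.10), Rgs12 (0.31 ± 0.07), Rgs10 (0.18 ± 0.01) and Rgs14 (0.11 ± 0.01 CPM per kb). Rgs7, the longest member, therefore gave the most reads of the 10 without the highest level per kb.

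**Figure D1:**
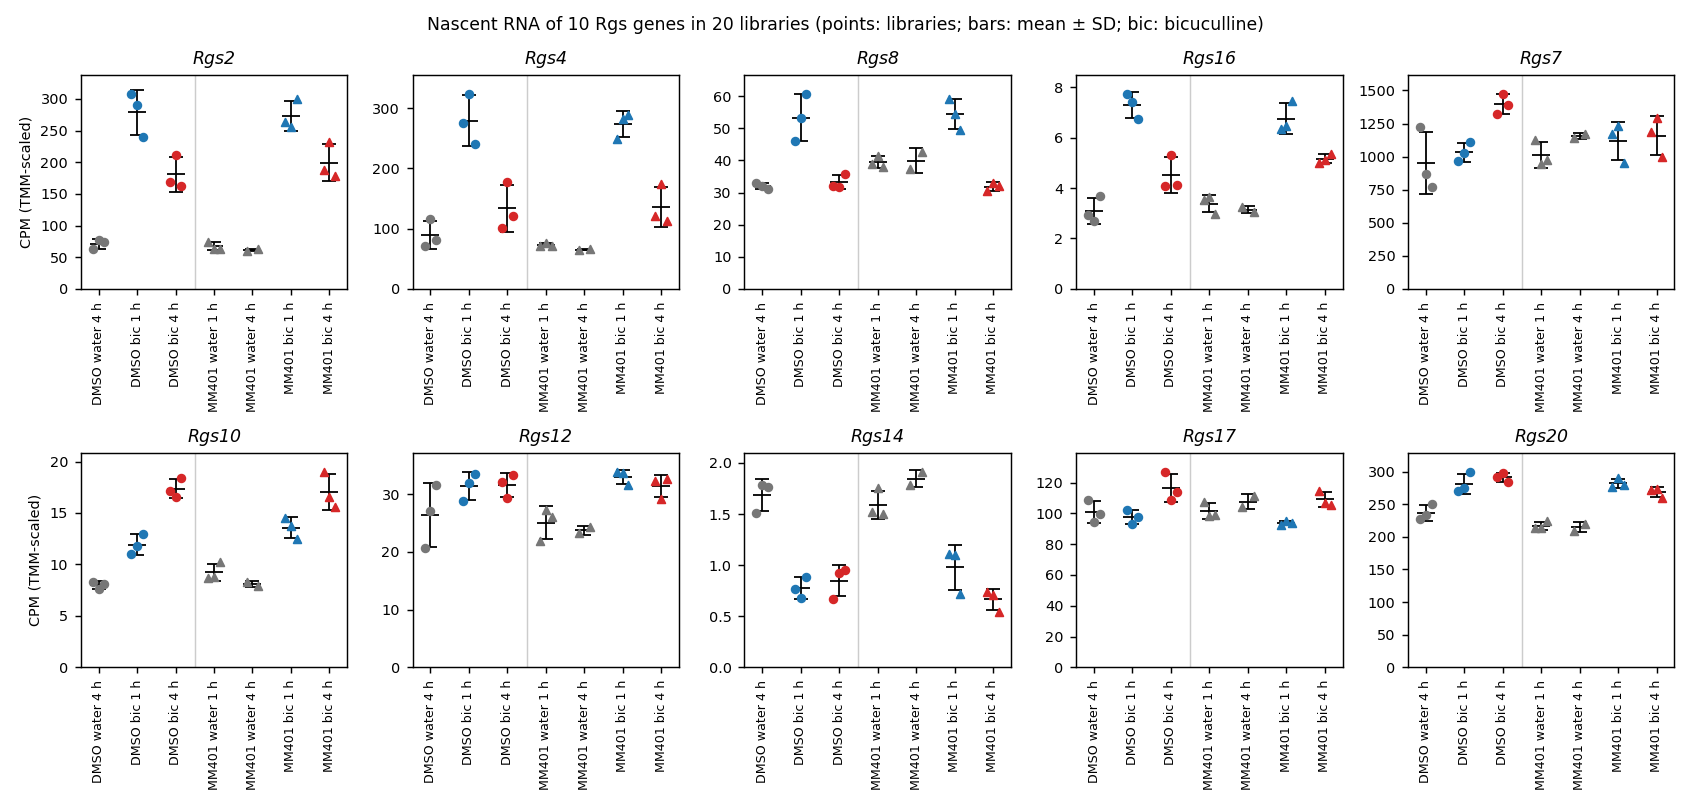
Level of each member in CPM (vertical axis, linear from 0, scaled per gene) in the 7 groups; points are libraries (circles DMSO, triangles MM401), bars are mean ± SD, and bic is bicuculline. Rgs2, Rgs4, Rgs8 and Rgs16 stand highest in the 1 h bicuculline groups, Rgs10 in the 4 h bicuculline groups, and Rgs14 is lower in bicuculline than in water.

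Under DMSO, 6 members were called higher and 1 lower after 1 h of bicuculline, against water at 4 h. Time and treatment differ together in that comparison. The rises were led by Rgs2, at 3.90-fold, and Rgs4, at 3.12-fold, and the fall was that of Rgs14. With 7 of 10 members called, the background was 44.6% of all genes tested, 20% called higher and 24.5% called lower. The members' median log2 fold change was 0.41, beside -0.04 over all genes tested. As the members were chosen with earlier results known, the counts and medians here describe the list and do not test it. At 4 h, 7 members were higher and 1 lower (background 49.2%, 23.7% higher and 25.5% lower), with a median of 0.42 beside -0.02. Both DMSO responses share the same 3 water libraries. Under MM401, 7 were higher and 1 lower at 1 h (background 39.9%, 18.1% and 21.8%), and 6 higher and 2 lower at 4 h (background 44.6%, 23.0% and 21.7%). The medians there were 0.43 and 0.36, beside 0.00 and 0.02 over all genes. With the shallow library kept, 6, 5, 7 and 7 members were called in these 4 comparisons, where all genes gave 31.1%, 38.2%, 27.4% and 35.1%. With plain library totals in place of TMM, which moved the median of all genes by -0.28 in DMSO at 4 h, the counts were 5 higher and 2 lower, 3 and 2, 6 and 2, and 5 and 2. Of all genes tested, 10.8%, 10.7%, 7.52% and 16.5% were then called higher and 40.2%, 46.4%, 38.6% and 24.4% lower, so that the 5 members called in DMSO at 4 h stand beside 57.1% of all genes. At 4 h under DMSO, Rgs4, Rgs16, Rgs17 and Rgs20 were then not called, and Rgs8 was called lower (-0.22, edgeR adjusted p = 0.027). In bulk cultures, fewer cells of a type and less RNA per cell cannot be told apart.

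**Figure D2:**
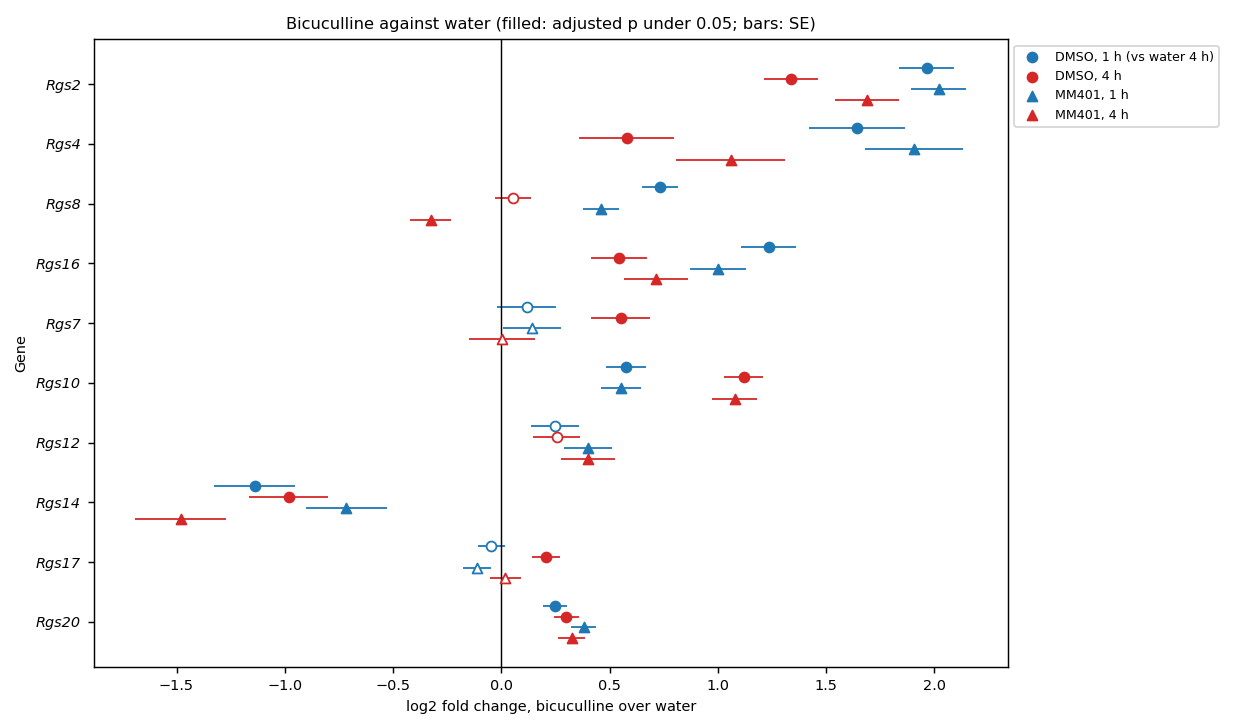
Log2 fold change of each member (vertical axis) in bicuculline over water (horizontal axis, bars ± SE) under DMSO (circles) and MM401 (triangles), at 1 h (blue) and 4 h (red); filled symbols are called. At 1 h Rgs2 and Rgs4 lie farthest right, and at 4 h Rgs2 does. Rgs14 is left of 0 in all 4 comparisons, and Rgs10 lies farther right at 4 h than at 1 h.

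Rgs2, which acts with a preference for Gq and is known as an activity-induced gene, had the largest rise of the members at 1 h. In the DMSO water libraries it stood at 62.9, 78.0 and 73.4 CPM, against 308, 290.2 and 239 CPM at 1 h of bicuculline and 168, 212 and 162 CPM at 4 h. No library of one group reached those of another. The log2 fold change was 1.96 ± 0.13 (SE) at 1 h, with an edgeR adjusted p of 1.0e-09, and it was 1.34 ± 0.12 at 4 h (edgeR adjusted p = 8.3e-08). From 1 h to 4 h it fell by 0.63 ± 0.12 on the log2 scale (edgeR adjusted p = 0.00058). With 7 of 10 members called between the bicuculline times, the background was 34.2% (19.1% higher, 15.2% lower).

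Under MM401 the course of Rgs2 was alike in shape. It stood at 74.7, 63.8 and 63.4 CPM in water at 1 h and at 60.5 and 63.2 CPM in water at 4 h. With bicuculline it stood at 263, 256 and 300.4 CPM at 1 h and at 188, 232 and 178 CPM at 4 h. Bicuculline libraries lay above all water libraries, and the rise was 2.02 ± 0.13 at 1 h and 1.69 ± 0.15 at 4 h on the log2 scale (edgeR adjusted p = 7.6e-10 and 6.1e-08).

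Rgs4, a regulator of Gi/o and Gq signalling that is abundant in cortex, rose at 1 h and came most of the way back by 4 h. Its DMSO water libraries were at 70.8, 116 and 81.8 CPM, the 1 h libraries at 275, 323 and 239.9 CPM, and the 4 h libraries at 102, 177 and 122 CPM. The 1 h libraries stood clear of the rest, while those at 4 h overlapped water. The log2 fold change was 1.64 ± 0.22 at 1 h (edgeR adjusted p = 3.6e-05) and 0.58 ± 0.22 at 4 h (edgeR adjusted p = 0.040). Between the bicuculline times Rgs4 fell by 1.06 ± 0.22 (edgeR adjusted p = 0.0015). The 4 h call rested on single libraries: it was lost without bicuculline replicate 2 (0.32, edgeR adjusted p = 0.22), water replicate 1 (0.44, 0.15) or water replicate 3 (0.49, 0.13). It was also lost with the shallow library kept (0.56, 0.081), with plain library totals (0.29, 0.30), with no filter (0.58, 0.058) and with only the groups compared (0.56, 0.15). Under MM401, Rgs4 stood at 71.9, 76.6 and 70.6 CPM in water at 1 h and at 65.1 and 65.5 CPM at 4 h. With bicuculline it stood at 249, 282 and 289 CPM at 1 h and at 121, 175 and 113 CPM at 4 h, and at both times all were above water. The rises there were 1.91 ± 0.22 and 1.06 ± 0.25 (edgeR adjusted p = 1.1e-05 and 0.0036).

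Rgs16, a close relative of Rgs4 that acts on Gi/o and Gq, was highest at 1 h of bicuculline and lower at 4 h under both pretreatments, at a far lower level than Rgs4. In DMSO it stood at 2.93, 2.69 and 3.68 CPM in water, at 7.73, 7.41 and 6.72 CPM after 1 h and at 4.07, 5.33 and 4.14 CPM after 4 h. The 3 groups did not overlap. Its log2 fold change was 1.23 ± 0.13 at 1 h (edgeR adjusted p = 8.1e-08) and 0.54 ± 0.13 at 4 h (edgeR adjusted p = 0.0014). With plain library totals the 4 h value was 0.26 and not called (edgeR adjusted p = 0.14). Under MM401 it was 1.00 ± 0.13 at 1 h and 0.72 ± 0.15 at 4 h. The MM401 fall from 1 h to 4 h, 0.39 ± 0.12 (edgeR adjusted p = 0.018), was not called without 1 h replicate 3 (-0.34, 0.060), without 4 h replicate 1 (-0.37, 0.060) or with plain totals (-0.32, 0.10). The 5 MM401 water libraries held 2.99 to 3.63 CPM and the 6 with bicuculline 5.0 to 7.47 CPM, again apart.

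Rgs8, which acts on Gi/o and speeds the gating of G-protein-gated potassium channels, was higher at 1 h and not at 4 h. The DMSO water libraries had 33.0, 32.1 and 31.0 CPM, the 1 h libraries 46.1, 53.1 and 60.7 CPM and the 4 h libraries 32.1, 31.9 and 35.7 CPM. Every 1 h library was above the others, and those at 4 h overlapped water. The log2 fold change was 0.73 ± 0.08 at 1 h (edgeR adjusted p = 3.4e-07) and 0.05 ± 0.08 at 4 h (edgeR adjusted p = 0.64). Under MM401, water libraries had 38.9, 41.4 and 38.0 CPM at 1 h and 37.3 and 42.6 CPM at 4 h. Bicuculline libraries had 59.1, 54.5 and 49.6 CPM at 1 h, above water, and 30.5, 33.1 and 32.0 CPM at 4 h, below it. Rgs8 was thus called higher at 1 h (0.46 ± 0.08, edgeR adjusted p = 0.00012) and lower at 4 h (-0.33 ± 0.09, edgeR adjusted p = 0.0066). Over the other settings the 1 h value ran from 0.25 to 0.49 and was called each time. The 4 h call was lost without MM401 water replicate 2 (-0.26, edgeR adjusted p = 0.092). The order of groups for these 4 small RGS genes shared the 1 h bicuculline groups at the top, and in each gene the DMSO and MM401 libraries at 1 h overlapped. The summed level of astrocyte markers also stood highest at 1 h: it was 443 to 666 CPM in DMSO water, 717 to 823 CPM at 1 h and 577 to 656 CPM at 4 h, and 414 to 696, 777 to 846 and 569 to 647 CPM under MM401. Of 5 astrocyte markers, 2 were called higher and 1 lower at 1 h under DMSO (background 20% and 24.5%) and 3 and 0 under MM401 (18.1% and 21.8%). At 4 h 0 were called higher under DMSO and 3 under MM401 (23.7% and 23.0%), and none lower. Their median log2 fold change did not follow the sum, at -0.05 at 1 h and 0.14 at 4 h under DMSO and 0.41 and 0.42 under MM401. Their part in these results was not tested.

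Rgs10, a short RGS protein of neurons and microglia that acts on Gi alpha subunits, was called above water at both times and was higher at 4 h than at 1 h of bicuculline, under both pretreatments. The DMSO water libraries had 8.31, 7.62 and 8.06 CPM, the 1 h libraries 11.0, 11.8 and 12.97 CPM and the 4 h libraries 17.1, 16.6 and 18.4 CPM. The groups were ordered without overlap. Rgs10 rose by 0.57 ± 0.09 at 1 h (edgeR adjusted p = 2.6e-05) and by 1.12 ± 0.09 at 4 h (edgeR adjusted p = 1.2e-09), and the difference between the times was 0.54 ± 0.09 (edgeR adjusted p = 4.6e-05). Under MM401 the water libraries had 7.86 to 10.2 CPM, and bicuculline gave 14.5, 13.7 and 12.5 CPM at 1 h and 19.0, 16.6 and 15.6 CPM at 4 h. There Rgs10 rose by 0.55 ± 0.09 and 1.08 ± 0.10, and by 0.33 ± 0.09 from 1 h to 4 h (edgeR adjusted p = 0.0060).

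Markers of excitatory and GABAergic neurons, microglia and the oligodendrocyte lineage moved with Rgs10 in part. Excitatory markers summed to 479.5 to 612 CPM in DMSO water, 675 to 743 CPM at 1 h and 904 to 1001 CPM at 4 h. Under MM401 the sums were 494 to 606, 649 to 814 and 835 to 935 CPM, and neither course overlapped. Of 5 such markers, 2 were called higher and 1 lower at each time under DMSO. Under MM401 the counts were 3 and 1, then 2 and 1. All genes gave 20% and 24.5%, then 23.7% and 25.5%, under DMSO, and 18.1% and 21.8%, then 23.0% and 21.7%, under MM401. GABAergic markers summed to 326 to 352 CPM in DMSO water, 494 to 573 CPM at 1 h and 646 to 688 CPM at 4 h, without overlap, and to 330 to 384, 557 to 626 and 590 to 653 CPM under MM401. Of 4 such markers, 2 were called higher at each time under DMSO (background 20% and 23.7%), and 4 and 3 under MM401 (18.1% and 23.0%), with none lower. The summed level of the microglial ones was 27.3 to 31.0 CPM in DMSO water, 25.1 to 33.4 CPM at 1 h of bicuculline and 32.7 to 39.1 CPM at 4 h. In MM401 it was 27.5 to 35.7 CPM in water, 31.6 to 35.1 CPM at 1 h and 37.8 to 41.9 CPM at 4 h. Of 5 markers tested none was called at 1 h, and 2 (DMSO) and 3 (MM401) were called higher at 4 h (background 23.7% and 23.0%), with median log2 fold changes of 0.24 and 0.44. Oligodendrocyte lineage markers summed to 99.7 to 124 CPM in DMSO water, 115 to 128 CPM at 1 h and 129.8 to 139 CPM at 4 h. In MM401 the sums were 94.0 to 107 CPM, 119 to 130.2 CPM and 133 to 139.6 CPM. Of 6 such markers, 1 was called higher at 1 h and 2 at 4 h under DMSO (background 20% and 23.7%), and 2 and 3 under MM401 (18.1% and 23.0%), with none lower. The median log2 fold changes were -0.08 and 0.10 under DMSO and 0.24 and 0.40 under MM401. The part of these lists in the Rgs10 result was not tested.

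Rgs12, a large scaffold with a GoLoco motif, stood at 20.7, 27.1 and 31.6 CPM in DMSO water, 28.8, 32.0 and 33.5 CPM at 1 h and 32.2, 29.3 and 33.3 CPM at 4 h. Water replicate 3 overlapped both bicuculline groups, and the log2 fold changes of 0.25 ± 0.11 at each time did not pass the test (edgeR adjusted p = 0.074 and 0.062). Without that water library they were 0.41 and 0.37 (edgeR adjusted p = 0.0030 and 0.0047), and DESeq2 called both with all water libraries (0.29 and 0.28, adjusted p = 0.025 and 0.028). With the replicate number as a block both were called as well (0.26 and 0.26, edgeR adjusted p = 0.037 and 0.029). Leaving out single libraries in turn gave 0.10 to 0.41 at 1 h and 0.11 to 0.37 at 4 h. The edgeR adjusted p then reached 0.37 and 0.34. Over the other settings the values ran from 0.045 to 0.29 at 1 h and from -0.031 to 0.28 at 4 h. Under MM401, Rgs12 rose by 0.40 ± 0.11 at 1 h (edgeR adjusted p = 0.0068) and by 0.40 ± 0.13 at 4 h (edgeR adjusted p = 0.013). All 5 MM401 water libraries (21.8 to 27.3 CPM) were below all 6 with bicuculline (29.2 to 33.8 CPM). Without MM401 water replicate 1 or 2 at 4 h, the 4 h value was 0.35 (edgeR adjusted p = 0.10) or 0.40 (0.061). With plain library totals both MM401 calls were lost (0.18 at 1 h and 0.33 at 4 h, edgeR adjusted p = 0.31 and 0.095).

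Rgs14, a GoLoco-containing protein known for restraining synaptic plasticity in hippocampal area CA2, fell under bicuculline in all 4 comparisons. It was the rarest member, at 1.51, 1.78 and 1.77 CPM in DMSO water, 0.77, 0.67 and 0.89 CPM at 1 h and 0.67, 0.92 and 0.95 CPM at 4 h. Water libraries were all above bicuculline libraries, and the 2 bicuculline times overlapped. Rgs14 fell by 1.14 ± 0.19 at 1 h and by 0.98 ± 0.18 at 4 h on the log2 scale (edgeR adjusted p = 3.9e-05 and 0.00012). Under MM401, water libraries had 1.5 to 1.91 CPM, and bicuculline libraries had 1.11, 1.1 and 0.72 CPM at 1 h and 0.74, 0.71 and 0.54 CPM at 4 h. The falls were 0.72 ± 0.19 and 1.48 ± 0.21 there (log2 fold changes of -0.72 and -1.48, edgeR adjusted p = 0.0038 and 7.2e-06).

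Rgs7, which with Gnb5 acts on Gi/o and is anchored by Rgs7bp or Gpr158, rose at 4 h under DMSO. It stood at 1220, 868 and 771 CPM in DMSO water, 964, 1026 and 1109 CPM at 1 h and 1323, 1473 and 1390 CPM at 4 h. The 4 h libraries were above all others of DMSO, although water replicate 1 lay well above its group. Neuronal markers were higher there as well, at 4523 to 5673 CPM in DMSO water and 6693 to 7194 CPM at 4 h, with 3 of 5 called higher and 2 lower (background 23.7% and 25.5%), and their part in the Rgs7 result was not tested. The log2 fold change was 0.12 ± 0.13 at 1 h (edgeR adjusted p = 0.51) and 0.55 ± 0.14 at 4 h (edgeR adjusted p = 0.0020). With plain library totals or a gene length correction the 4 h value was 0.29 or 0.31, and it was still called. Leaving out single libraries in turn gave 0.001 to 0.33 at 1 h and 0.39 to 0.77 at 4 h, and the 4 h call was kept each time. Without water replicate 1, the 1 h value became 0.33, which passed the test (edgeR adjusted p = 0.018), and the 4 h value 0.77. From 1 h to 4 h it rose by 0.43 ± 0.14 (edgeR adjusted p = 0.016), a call lost without 1 h replicate 1 (0.39, 0.066) or 4 h replicate 2 (0.39, 0.057), or with the shallow library kept (0.39, 0.14). Under MM401, Rgs7 stood at 1142 and 1171 CPM in water at 4 h and at 1186, 1292 and 997 CPM with bicuculline at 4 h, and the log2 fold change was 0.00 ± 0.15. At 1 h it was 0.14 ± 0.13 (edgeR adjusted p = 0.43). Neuronal markers under MM401 summed to 5342 to 5482 CPM in water at 4 h and 6045 to 6616 CPM with bicuculline at 4 h. Of 5 such markers 2 were called higher and 2 lower there (background 23.0% and 21.7%).

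Rgs20 and Rgs17, the pair that acts on Gz, differed from each other. Rgs20 stood at 227, 233 and 249.9 CPM in DMSO water, 269.7, 275 and 299 CPM at 1 h and 292, 298 and 284 CPM at 4 h, with water below bicuculline throughout. Its log2 fold changes were small, at 0.25 ± 0.06 and 0.30 ± 0.06 (edgeR adjusted p = 0.0011 and 0.00013). Under MM401 they were 0.38 ± 0.06 at 1 h and 0.32 ± 0.06 at 4 h (edgeR adjusted p = 1.3e-05 and 0.00027). With plain library totals or a gene length correction the DMSO values of Rgs20 were 0.02 to 0.09 and not called, and its MM401 value at 1 h was 0.17 or 0.22 and still called. With the shallow library kept, all 4 calls were lost: the values were 0.27 and 0.28 under DMSO and 0.38 at 1 h under MM401 (edgeR adjusted p = 0.38, 0.34 and 0.22), and -0.16 at 4 h under MM401 (0.64).

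Rgs17 stood at 109, 94.3 and 99.7 CPM in DMSO water, 102, 93.0 and 98.0 CPM at 1 h and 127, 109 and 114 CPM at 4 h, and each bicuculline group overlapped water. It was called only at 4 h under DMSO, at 0.21 ± 0.06 (edgeR adjusted p = 0.010), and not at 1 h (-0.05 ± 0.06) or under MM401 (-0.11 ± 0.06 and 0.02 ± 0.07). The call was lost without bicuculline replicate 1 (0.14, edgeR adjusted p = 0.089), water replicate 2 (0.14, 0.13) or water replicate 3 (0.17, 0.068). It turned to -0.065 and was not called with plain library totals, and with a gene length correction it was 0.035 and not called. At 1 h Rgs17 was then called lower: with plain totals at -0.23 under DMSO and -0.32 under MM401 (edgeR adjusted p = 0.0032 and 0.00016), and with the length correction at -0.18 and -0.21. The 4 h call was also lost with the shallow library kept (0.19, 0.16) or with only the groups compared (0.19, 0.082). Rgs17 was higher at 4 h than at 1 h of bicuculline under DMSO (0.25 ± 0.06, edgeR adjusted p = 0.0035) and under MM401 (0.22 ± 0.06, edgeR adjusted p = 0.011). With the shallow library kept neither was called (0.21 and 0.19, edgeR adjusted p = 0.16 and 0.21). The MM401 call was also lost without bicuculline 1 h replicate 3 (0.18, 0.066) or 4 h replicate 1 (0.18, 0.067).

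Between 1 h and 4 h of bicuculline under MM401, 2 members were called higher and 5 lower, with 33.6% of all genes called (17.5% higher, 16.0% lower). Rgs10 and Rgs17 were the higher pair. Rgs4 fell by 1.01 ± 0.22, Rgs8 by 0.77 ± 0.08, Rgs14 by 0.55 ± 0.21, Rgs2 by 0.45 ± 0.12 and Rgs16 by 0.39 ± 0.12 on the log2 scale. Of these, Rgs14 was close to the threshold (edgeR adjusted p = 0.044), and its call was lost without 1 h replicate 1 or 2 or 4 h replicate 2 or 3 (log2 fold changes -0.60 to -0.42). Without 1 h replicate 3 or 4 h replicate 1 of MM401 with bicuculline, 4 members were called (31.9% or 28.6% of all genes), and Rgs10, Rgs16 and Rgs17 were not among them. With the shallow library kept, Rgs2, Rgs14 and Rgs17 were no longer called (21.7% of all genes), and with plain library totals Rgs2, Rgs14 and Rgs16 were not (32.7%). Rgs7, at 0.05 and not called, was called with a gene length correction (0.26, edgeR adjusted p = 0.0097). The 1 h and 4 h groups of water under MM401 could be compared as well: no member was called (background 0.867%), none had an unadjusted p under 0.05 (background 10%), and their log2 fold changes ran from -0.19 to 0.21. Over all genes edgeR gave an unadjusted p under 0.05 to 1699 there.

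MM401 was compared with DMSO to ask whether blocking the MLL1 and WDR5 contact altered these levels, and no member was called in any such comparison. In water at 4 h (background 0.0826%), log2 fold changes ran from -0.45 ± 0.25 for Rgs4 to 0.32 ± 0.09 for Rgs8. With bicuculline they ran from -0.11 ± 0.12 (Rgs16) to 0.33 ± 0.20 (Rgs14) at 1 h (background 0.0059%), and from -0.37 ± 0.20 (Rgs14) to 0.19 ± 0.13 (Rgs16) at 4 h (background 0.0%). At an unadjusted p under 0.05 the members numbered 2 (background 12.9%), 1 (3.18%) and 1 (7.72%), and all genes 2194, 540 and 1309. Standard errors of the members ran from 0.06 to 0.25, so differences of that size were not resolved, and a missed threshold does not show equal levels.

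All MM401 water libraries of Rgs8 at 4 h (37.3 and 42.6 CPM) were above the DMSO ones (31.0 to 33.0 CPM), at an edgeR adjusted p of 0.17, the lowest of the members in that comparison. Libraries were apart there for Rgs14 too, higher under MM401 (0.13, edgeR adjusted p = 0.79), and for Rgs4 (-0.45, 0.44) and Rgs20 (-0.14, 0.35), lower under MM401. With bicuculline at 4 h, Rgs20 (260.3 to 274 CPM against 284 to 298 CPM) and Rgs7 (997 to 1292 against 1323 to 1473 CPM) lay lower under MM401 without overlap (-0.12 and -0.27, edgeR adjusted p = 0.64 for both). The test of the interaction, which subtracts the response of DMSO cultures to 4 h of bicuculline from that of MM401 cultures, called no member (background 0.0%, 2 members and 2552 genes with an unadjusted p under 0.05). It gave -0.38 ± 0.12 for Rgs8 (edgeR adjusted p = 0.23) and -0.55 ± 0.20 for Rgs7 (edgeR adjusted p = 0.24). The highest value was 0.48 ± 0.33, for Rgs4. With single libraries left out in turn, Rgs4 ran from 0.24 to 0.74 in the interaction and from -0.60 to -0.21 in water. Some of the calls between MM401 and DMSO turned on DMSO water replicate 1, the library in which Rgs7 was high. Over all genes it differed from replicates 2 and 3 by a chi-square per degree of freedom of 48.0 and 82.7. Those 2 differed from each other by 19.6, and no other pair of replicates in any group reached 48.0. Without DMSO water replicate 1, Rgs7 was called in the interaction (-0.77 ± 0.16, edgeR adjusted p = 0.0074). In water both Rgs7 (0.50, edgeR adjusted p = 0.018) and Rgs8 (0.34, edgeR adjusted p = 0.044) were then called higher under MM401. Leaving out that library also moved the number of all genes called, from 0 to 1551 in the interaction and from 14 to 1272 in water.

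**Figure D3:**
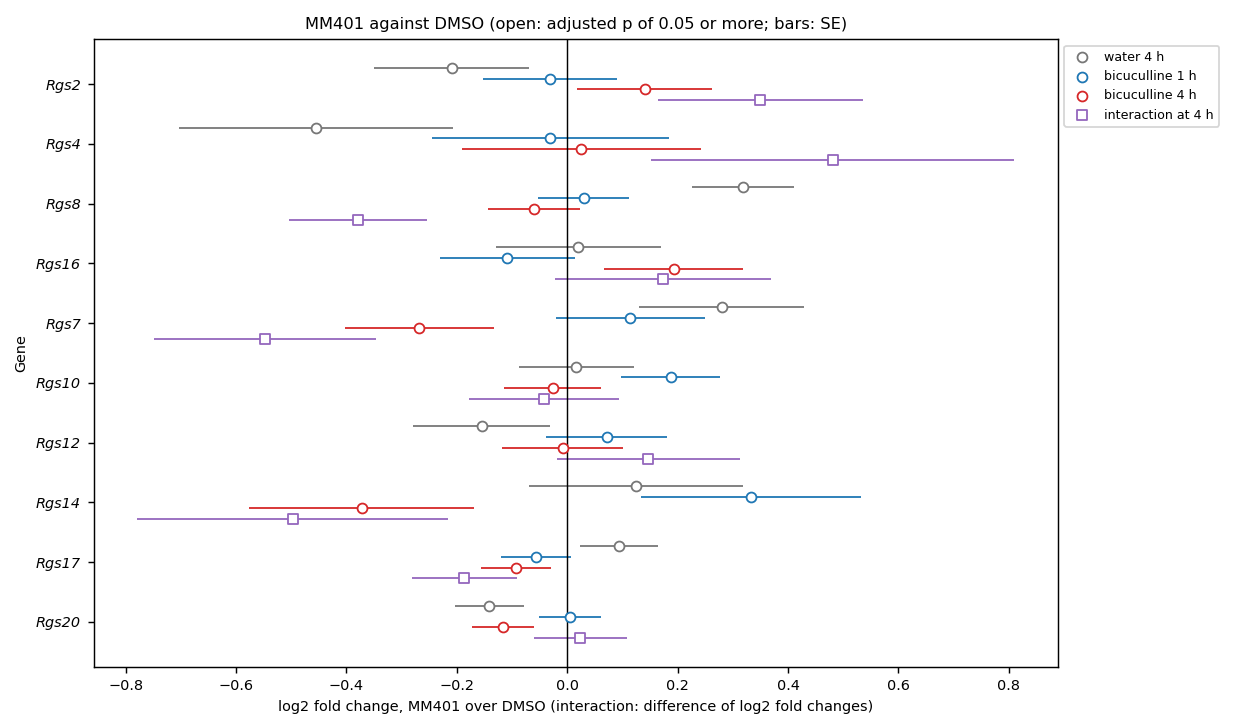
Log2 fold change of each member (vertical axis), MM401 over DMSO (horizontal axis, bars ± SE), in water at 4 h, bicuculline at 1 h and bicuculline at 4 h, with the interaction at 4 h as squares. All symbols are open, since no member was called; the widest distances from 0 are those of Rgs4, Rgs7, Rgs8 and Rgs14.

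Over the 20 libraries, the members formed sets by pattern. Pearson's r of log2 CPM was 0.93 between Rgs2 and Rgs4, 0.94 between Rgs2 and Rgs16 and 0.92 between Rgs4 and Rgs16. Rgs14 ran opposite to Rgs2 (-0.85) and Rgs10 (-0.82), and Rgs8 and Rgs10 had an r of -0.02. The libraries share 7 groups, so these values describe differences between groups as much as those between libraries. The genes nearest in pattern, among at least 11850 candidates of at least 2 CPM, were Omg (r = 0.99) and Dusp1 (0.988), a phosphatase of MAP kinases, for Rgs2. For Rgs4 they were Ina (0.965) and Slc25a3 (0.964), and for Rgs16 Jun (0.973), a subunit of AP-1, and Adrb1 (0.965), a beta adrenergic receptor. For Rgs8 they were Agpat4 (0.971) and Xylt1 (0.965), and for Rgs10 Tet3 (0.977) and Fhl1 (0.977). Rgs7 was nearest to Fam19a2 (0.978) and Thrb (0.967), Rgs20 to Atl2 (0.964) and Tspan7 (0.961), and Rgs12 to Tns3 (0.961) and Pygb (0.959). The lowest of these best values were those of Rgs14, with Sez6 and Fam171a1 (0.927 each), and Rgs17, with Cenpc1 (0.927) and Trim33 (0.911).

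**Figure D4:**
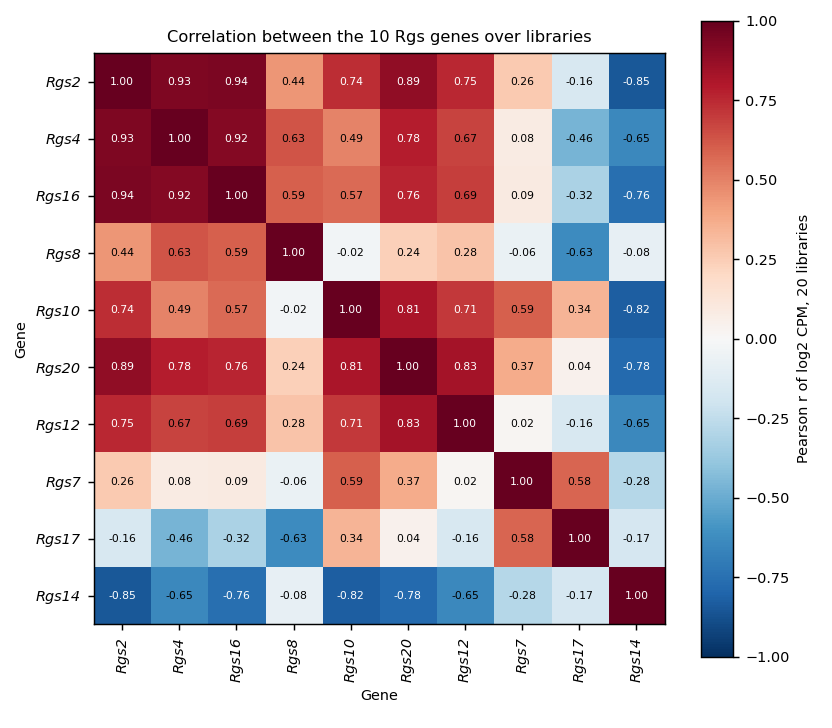
Pearson's r of log2 CPM between each pair of members over 20 libraries, as a colour scale from -1 (blue) to 1 (red) with the value in each cell. Rgs2, Rgs4 and Rgs16 form a block of 0.92 to 0.94, and the row of Rgs14 is negative.

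Of the 11 other Rgs genes of the table, 9 passed the filter (Rgs18 and Rgs21 had at most 5 reads in a library). Under DMSO, 5 were called higher and 1 lower at 1 h (background 20% and 24.5%), and 6 and 1 at 4 h (23.7% and 25.5%). Under MM401 they were 4 and 1 at 1 h (18.1% and 21.8%), and 4 and 0 at 4 h (23.0% and 21.7%). Rgs3 was not called in any of the 4, and the lower gene was Rgs19. Rgs13, which lies beside Rgs2, went from 5.96 ± 0.82 to 26.5 ± 4.4 CPM at 1 h (SD, n = 3), or 2.16 ± 0.14 on the log2 scale (edgeR adjusted p = 4.9e-10), with no overlap between libraries. Rgs1, the next along, did not pass the test at 1 h under DMSO (0.27 ± 0.12, edgeR adjusted p = 0.070) or MM401 (0.28 ± 0.12, 0.062), and was called higher at 4 h under both (0.43 ± 0.12 and 0.61 ± 0.13, edgeR adjusted p = 0.0044 and 0.00082). Rgs5, which faces Rgs4, rose by 1.13 ± 0.17 at 1 h under DMSO from a low 1.12 ± 0.08 CPM. Rgs6, a relative of Rgs7 that also binds Gnb5, rose at 4 h under DMSO from 277 ± 68 to 453 ± 36 CPM, and under MM401 its 4 h value of 0.18 ± 0.17 did not pass the test (edgeR adjusted p = 0.42). Rgs19 fell by 0.85 ± 0.16 at 1 h and by 0.90 ± 0.16 at 4 h under DMSO and by 0.64 ± 0.17 at 1 h under MM401. Its 4 h value there was -0.27 ± 0.18 (edgeR adjusted p = 0.25).

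Rgs7bp, the membrane anchor of Rgs7 and its relatives, went from 259 ± 15 CPM in DMSO water to 599.7 ± 35.1 CPM at 1 h and 585 ± 21 CPM at 4 h, log2 fold changes of 1.21 ± 0.08 and 1.18 ± 0.08 (edgeR adjusted p = 9.5e-11 and 1.2e-10). Under MM401 it rose by 1.45 ± 0.08 and 1.00 ± 0.09. Gpr158, an orphan receptor that recruits Rgs7, rose by 0.55 ± 0.11 at 1 h and 0.62 ± 0.11 at 4 h under DMSO. Over the list of 10 tested partners and modifiers of G proteins, 4 were higher and 0 lower at 1 h under DMSO (background 20% and 24.5%), and 5 and 1 at 4 h (23.7% and 25.5%). Under MM401 the counts were 5 and 0 (18.1% and 21.8%), and 3 and 0 (23.0% and 21.7%).

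Of 13 alpha subunits tested, the part of the G protein on which RGS proteins act, 5 were called higher and 2 lower at 1 h under DMSO, and 3 and 1 at 4 h. Under MM401 the counts were 5 and 2, then 2 and 1. The share of all genes called in either direction was 44.6% and 49.2% under DMSO and 39.9% and 44.6% under MM401, so the alpha subunits gave 7 calls near that share at 1 h and fewer at 4 h. Gnai1, an inhibitory subunit, rose from 164 ± 18 to 227 ± 18 CPM at 1 h and 273 ± 7 CPM at 4 h under DMSO (0.47 ± 0.08 and 0.73 ± 0.08 on the log2 scale). Gna14, of the Gq class, rose by 1.28 ± 0.13 at 1 h, and its relative Gna11 fell by 0.64 ± 0.12. Gnaz, which encodes the alpha subunit of Gz, fell at 1 h, by 0.29 ± 0.07 under DMSO and by 0.53 ± 0.07 under MM401. Of 15 beta and gamma subunits, 4 were higher and 3 lower at 1 h under DMSO, 6 and 1 at 4 h, 6 and 1 at 1 h under MM401 and 5 and 2 at 4 h. That is 7 of 15 in each comparison, close to those shares of all genes. Gng2 rose by 0.41 ± 0.07 and 0.73 ± 0.07 under DMSO.

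Receptor kinases and arrestins, which end signalling at the receptor, gave 1 of 7 called higher and 2 lower at 1 h under DMSO, and 1 and 0 under MM401. At 4 h the counts were 1 higher and 3 lower under each pretreatment. All genes gave 44.6%, 39.9%, 49.2% and 44.6% in these 4 comparisons. The higher gene was Grk5, which went from 102 ± 8 to 192 ± 10 CPM at 4 h under DMSO (0.91 ± 0.08, edgeR adjusted p = 2.0e-09), while Grk6 fell by 0.59 ± 0.10. Among 16 effectors, 4 were higher and 1 lower at 1 h and 5 and 5 at 4 h under DMSO. Under MM401 they were 4 and 2, then 1 and 6. The effectors called in either direction thus numbered 5 and 10 of 16 under DMSO (background 44.6% and 49.2%), and 6 and 7 under MM401 (39.9% and 44.6%). Adcy8 and Adcy1 encode adenylyl cyclases, which make cAMP. At 4 h under DMSO Adcy8 rose by 0.87 ± 0.10, and Adcy1 fell by 0.50 ± 0.09. The potassium channel gene Kcnj3 (0.80 ± 0.14) and the phospholipase C gene Plcb1 (0.69 ± 0.11) rose at 4 h under DMSO. No gene of these lists was called between MM401 and DMSO or in the interaction.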

How the data were processed

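BrU-seq libraries were placed in 7 groups of 3 from the labels. The authors deposited whole-number read counts per gene, made with featureCounts over whole genes on mm10, per the file headers, with no normalization applied. The submitters' processing notes also name Bowtie2, UMI-tools, deepTools and DESeq2, without their roles. Strand use, duplicate and multi-mapped read handling and versions are not given in the sources used here. Gene lengths come from the deposited table.

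Counts were fitted in R 4.3.3 with edgeR 4.0.16 (limma 3.58.1): filterByExpr (minimum count 10, minimum total 15), TMM scaling, 20 libraries, 1 mean per group, robust quasi-likelihood tests, two-sided, with Benjamini-Hochberg adjustment over 16959 genes. Errors are SD between libraries or SE of log2 fold changes, and the common biological coefficient of variation was 8.77%. The script was tested on simulated counts. Replicates differed beyond sampling noise (chi-square per degree of freedom 6.40 to 82.7 over 19 pairs).

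The members and gene lists were chosen with earlier results of these data known. Every member was described; of each list, up to 3 genes per direction and comparison could be named, with the largest log2 fold change among called genes of at least 1 CPM whose groups did not overlap. Rgs1 was named for its position beside Rgs13. For each member the 2 genes of highest Pearson r were named.

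Groups share replicate numbers, and no label says what these stand for. The sample titles number the libraries in a run in which all groups with the same replicate number follow each other. The main fit did not use the replicate number. Of 7 compared group pairs with 3 shared numbers, 1 had every correlation of same-numbered deviations over 0.1 (0.11 to 0.17), namely the MM401 and DMSO groups at 4 h of bicuculline. With the replicate number as a block, 0 members were called there too. Alternatives tried were all 21 libraries, DESeq2 1.42.0, RLE factors, plain library totals, no filter, the replicate block, only the groups compared, a gene length correction and leaving out each library in turn.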

Additional observations from a re-analysis of the deposited data

How the results depend on the processing

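The 45 member results called in the 6 comparisons within a pretreatment kept direction and call in 331 of 360 recalculations with other settings. In 27 the call was lost, and 2 reversed: Rgs20 in MM401 bicuculline against water at 4 h with all 21 libraries (-0.16), and Rgs17 in DMSO at 4 h with plain library totals (-0.065). Leaving out 1 library kept 241 of 262 and lost 21 calls; where this left a lone library, it was assumed to vary like the other groups. The results not called that were recalculated were all those of the same 6 comparisons and, in the other 5, the members past an unadjusted p of 0.05, called in any recalculation, or with the lowest or highest value. Among these 30, 203 of 240 kept their side and direction, 11 became called and 26 changed sign. Plain library totals moved the median of all genes by -0.19 and -0.28 (DMSO at 1 h and 4 h) and by -0.21 (MM401 at 1 h), and the share of higher among the genes called from 44.9%, 48.1% and 45.4% to 21.2%, 18.8% and 16.3%. Members called then split 5 higher and 2 lower, 3 and 2, and 6 and 2, with 51.0%, 57.1% and 46.1% of all genes tested called. Sign changes among them were these. With plain totals, Rgs7 was -0.060 (DMSO 1 h), -0.075 (MM401 1 h) and -0.077 (MM401 4 h), Rgs8 -0.22 (DMSO 4 h, then called) and Rgs17 -0.057 (MM401 4 h). Rgs12 was -0.031 (DMSO 4 h), -0.076 (DMSO, 4 h against 1 h) and 0.0070 (MM401, 4 h against 1 h), and Rgs20 was -0.030 (DMSO) and 0.0071 (MM401) for 4 h against 1 h. With the gene length correction, Rgs7 was -0.13 (DMSO 1 h) and -0.11 (MM401 1 h), Rgs8 -0.0052 (DMSO 4 h), Rgs17 -0.040 (MM401 4 h), Rgs12 -0.031 (DMSO, 4 h against 1 h) and Rgs20 0.029 (MM401, 4 h against 1 h). Rgs7 in MM401 at 4 h was -0.0064 with both DESeq2 and RLE factors, -0.00089 with no filter and -0.018 with only the groups compared. Rgs12 in DMSO, 4 h against 1 h, was -0.011 with both DESeq2 and RLE factors, -0.036 with 21 libraries and -0.025 with only the groups compared. Rgs17 in MM401 at 4 h was -0.0014 with only the groups compared, and Rgs20 in MM401 against DMSO in water was 0.32 with 21 libraries.

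Leaving out 1 library changed the sign of Rgs17 (DMSO 1 h, -0.080 to 0.011; MM401 4 h, -0.047 to 0.042) and Rgs8 (DMSO 4 h, -0.0033 to 0.081). It did so for Rgs7 (MM401 4 h, -0.084 to 0.0996; MM401 4 h against 1 h, -0.082 to 0.15) and Rgs12 (DMSO 4 h against 1 h, -0.053 to 0.058). With all 21 libraries, 5 members were called in DMSO at 4 h (38.2% of all genes) and 4 in MM401 for 4 h against 1 h (21.7%), as with plain totals (5 and 4, beside 57.1% and 32.7%), and leaving out 1 library gave 4 to 6 in the latter (27.3% to 31.9% of all genes). Genes called for 4 h against 1 h of bicuculline fell from 5805 to 3745 (DMSO) and from 5691 to 3646 (MM401) with 21 libraries. For MM401 water, 4 h against 1 h, 147 became 19 (21 libraries), 275 (DESeq2), 328 (only the groups compared), 235 (length correction) and 14 to 140 without 1 library. For MM401 against DMSO in water, 14 became 0 (21 libraries), 166 (DESeq2), 4 (plain totals), 0 (only the groups compared) and 0 to 1272 without 1 library, with 0 to 2 members. In bicuculline at 1 h, 1 became 13 (DESeq2), 4 (replicate block) and 0 to 2 without 1 library. At 4 h, 0 became 7 with DESeq2. The interaction went from 0 to 294 (DESeq2) and 0 to 1551 without 1 library, with 0 to 1 members. The cause was not tested.

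With the replicate number as a block, 8, 9, 8 and 8 members were called in the 4 comparisons of bicuculline with water and 7 and 7 between its times, beside 47.4%, 51.8%, 43.0%, 46.5%, 36.7% and 36.1% of all genes. Rgs12 became called under DMSO (0.26 at 1 h and 0.26 at 4 h, edgeR adjusted p = 0.037 and 0.029), and the block changed no other member's call. In 3 of the 7 group pairs with 3 numbers, every library correlated best with its own number. Rgs14 had the fewest reads of the members, 36 to 152 per library.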
